A study of Mus musculus with 8 samples.

Results

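Genes that mark neurons making serotonin or dopamine, 10 in number, were followed through the arrays: *Slc6a4*, *Tph2*, *Fev*, *Slc18a2*, *Gata2*, *Gata3*, *Maob*, *Ddc*, *Th* and *Slc6a3*. All probes carrying one of these gene names were taken, 13 of 41174 probes, for 10 of 27962 gene names on the array. The genes were chosen by their ratios on these arrays, PACAP38 over saline and PMCAO over sham, so their values below are a description and carry no test. At 6 h the transcripts of the serotonin transporter and of the serotonin-making enzyme were lower with PACAP38 than with saline in both sham and PMCAO pools, at signals close to the array background. At 24 h 5 of the 10 genes were below 0.75-fold with PACAP38 in the PMCAO pools, beside 8.31% of all gene names, and none in the sham pools, beside 3.81%.

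Serotonin is made from tryptophan by the hydroxylase Tph2 and the decarboxylase Ddc, is packed into vesicles by the transporter Slc18a2 (VMAT2) and is taken back from the synapse by Slc6a4 (SERT). Dopamine is made from tyrosine by the hydroxylase Th and the same Ddc, is packed by the same Slc18a2 and is taken back by Slc6a3 (DAT), and Maob is one of the enzymes that break monoamines down. *Fev* (Pet-1), *Gata2* and *Gata3* encode transcription factors of developing and adult serotonin neurons, and *Gata2* and *Gata3* are also active in other neurons and in blood cells. The cell bodies of serotonin neurons lie in the raphe nuclei of the brainstem, and those of dopamine neurons mostly in the midbrain, with further *Th*-expressing cells in the hypothalamus and the olfactory bulb.

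The mice were male C57BL/6J, of 8 to 12 weeks by the labels, while the methods give a single age within that range. They had a permanent occlusion of the middle cerebral artery (PMCAO) by an intraluminal filament, or a sham operation, and at once received 1 pmol PACAP38 (pituitary adenylate cyclase-activating polypeptide) in 1 μL saline, or 1 μL saline alone, into a cerebral ventricle. PMCAO mice were selected for neurological grades G1 and G2 and sham mice were taken at random, and the right hemisphere, ipsilateral to the occlusion and not the injected side, was sampled after 6 or 24 h. By the methods the olfactory bulb and the cerebellum were removed from it. RNA of 3 mice was pooled for each of the 8 groups, 300 ng per mouse, and each PACAP38 pool was hybridized against the saline pool of the same surgery and time on 2 two-colour arrays with the dyes exchanged. The 2 arrays are technical replicates of 1 pair of pools, so no comparison has a spread between mice. The arrays of 6 h and of 24 h lay on different slides, so time and slide cannot be told apart, while sham and PMCAO of one time shared a slide.

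The number of arrays limits the precision throughout. Between 0.323% and 3.09% of spots were marked as outliers, except on 1 array of the sham comparison at 6 h (PACAP38 labeled with Cy3), where 10.7% were. Median signals were lower at 6 h (62.0 to 70.1 in Cy3, against backgrounds of 44.0 to 45.0) than at 24 h (131 to 146, against 40.0). Over all genes, the PACAP38 ratios of the 2 dye orientations correlated at -0.16, -0.14, -0.40 and 0.09 in the order sham 6 h, PMCAO 6 h, sham 24 h and PMCAO 24 h. Both arrays are therefore given for every member past a threshold with PACAP38, while other members are often given by their mean alone. The genes of the forebrain that a hemisphere should hold were present: none of the 4 cortical markers was below background on both arrays in any pool. In RNA of mixed tissue, fewer cells of a type and less RNA per cell cannot be told apart.

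What the array reads for the 5 genes on which the results turn is shown by the first 30 of the 60 bases of each probe, 5′ to 3′, with the position of the whole probe in the genome build of the scanner files (mm7). Whether a probe lies in a coding exon or a UTR was not assigned here.
Slc6a4 probe (chr11:77113633-77113692, + strand): acataaaccacctaagagaaaacagggatg
Tph2 probe (chr10:114585279-114585338, - strand): gaaaagttttgataaacaggatatataggt
Slc18a2 probe (chr19:59217832-59217891, + strand): tttctgcttttgaggcttcagtttcagtaa
Th probe (chr7:139321292-139321351, - strand): atcaaacctaccagccggtgtacttcgtgt
Slc6a3 probe (chr13:70510016-70510075, + strand): tggctgagaagaatcaggtttaccatctcc
The study also designed RT-PCR primers for 2 of these genes, which show the stretch of the transcripts it followed by another method. No value from that method is used here.
Slc6a4 forward primer: ccctctgtttctcctgttcatc
Slc6a4 reverse primer: atgtcctctccctcagtgtgtt
Tph2 forward primer: cgtatggagcagggttactttc
Tph2 reverse primer: tcctgcaccacattctcaatac

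For the pair that was lower together at 6 h and for *Th*, the 250 bases before the transcription start are given from RefSeq (GRCm38.p6), in the direction of the gene. Of the 10 genes 9 have an entry in that table. Capitals mark matches on either strand to 3 motifs. The first is the full cAMP response element (CRE), TGACGTCA. The second is the motif of GATA factors, spelled AGATAA here. The third is the core bound by ETS factors, the family to which Fev belongs, spelled CGGAA.
Slc6a4 upstream (chr11:76998347-76998596, + strand): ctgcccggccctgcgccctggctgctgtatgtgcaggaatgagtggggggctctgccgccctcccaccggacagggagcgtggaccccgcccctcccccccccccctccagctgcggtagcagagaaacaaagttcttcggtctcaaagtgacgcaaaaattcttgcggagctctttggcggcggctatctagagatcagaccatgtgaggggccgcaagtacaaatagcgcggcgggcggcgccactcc
Tph2 upstream (chr10:115185023-115185272, - strand): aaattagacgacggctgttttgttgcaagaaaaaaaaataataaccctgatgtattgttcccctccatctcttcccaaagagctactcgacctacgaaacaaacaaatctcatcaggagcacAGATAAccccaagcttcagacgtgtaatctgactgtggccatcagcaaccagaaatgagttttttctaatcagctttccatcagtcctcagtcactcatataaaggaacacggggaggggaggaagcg
Th upstream (chr7:142899996-142900245, - strand): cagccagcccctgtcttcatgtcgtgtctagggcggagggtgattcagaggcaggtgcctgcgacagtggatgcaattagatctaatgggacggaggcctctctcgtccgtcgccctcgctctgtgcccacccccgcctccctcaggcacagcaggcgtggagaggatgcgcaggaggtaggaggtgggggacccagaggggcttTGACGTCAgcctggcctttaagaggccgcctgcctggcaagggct
In these windows *Th* holds the full CRE at 45 to 38 bases before the start, *Tph2* holds a GATA motif at 128 to 123 bases before it, and *Slc6a4* holds no match. Among the 9 genes 1 held the CRE, 3 the GATA motif (*Tph2*, *Fev*, *Slc18a2*) and 4 the ETS core (*Fev*, *Gata2*, *Gata3*, *Slc6a3*). Of 32841 windows of the same length, 1.55% held the CRE, 9.99% the GATA motif and 25.2% the ETS core. The motifs do not overlap each other in these windows, and a match is a run of letters, not a bound site.

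The first comparison asked what PACAP38 changes without ischemia, 6 h after sham surgery. Values above 1.5-fold were called upregulated and values below 0.75-fold downregulated, the thresholds of the study. *Slc6a4* and *Tph2* were the 2 members below 0.75-fold, of 9 with a value on both arrays, and no member was above 1.5-fold. Over all gene names 7.16% lay below 0.75-fold and 3.84% above 1.5-fold.

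The level of a pool is given as a percent of the 75th percentile of its channel, as the geometric mean of both dyes. *Slc6a4* stood at 20.9% in the sham saline pool (26.1% and 16.8% on the 2 arrays) and at 4.03% in the sham PACAP38 pool (3.20% and 5.07%). The saline and PACAP38 channels did not overlap. Here and below, such channels are 2 dye orientations of 1 pair of pools. The share of all genes without overlap was not counted, so the separation is a description only. The PACAP38 over saline ratio was 0.192-fold, with log2 ratios of -3.04 on the array with PACAP38 in Cy5 and -1.72 on the array with PACAP38 in Cy3. *Tph2* stood at 27.7% with saline (24.5% and 31.3%) and 8.38% with PACAP38 (5.16% and 13.6%), again without overlap. Its ratio was 0.302-fold, with log2 ratios of -2.25 and -1.20.

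The remaining members of the serotonin set moved less at this time. *Slc18a2* was at 0.835-fold by its brighter probe and 0.854-fold by the second, *Gata2* at 0.912-fold and 0.936-fold by its 2 probes, and *Gata3* at 0.818-fold. *Fev* was at 0.778-fold, but its arrays disagreed in sign, with log2 ratios of 0.19 and -0.91. The arrays also disagreed in sign for the brighter *Gata2* probe (0.10 and -0.37). Of the genes shared with or belonging to dopamine neurons, *Slc6a3* was at 1.14-fold. *Ddc* was at 0.952-fold by its brighter probe and 1.17-fold by the second. Both *Ddc* probes disagreed in sign between arrays, with log2 ratios of 0.16 and -0.30 and of 0.67 and -0.22. *Th* was at 1.36-fold, with log2 ratios of 0.65 and 0.24, and of its usable spots 10 of 10 on the first array and 7 of 8 on the second were above 0. *Maob* was marked as an outlier on the second array and gave 0.819-fold on the first alone.

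The second comparison asked the same of the ischemic hemisphere at 6 h. *Slc6a4* stood at 18.9% with saline (17.6% and 20.4%) and 5.36% with PACAP38 (5.19% and 5.53%), a ratio of 0.283-fold with log2 ratios of -1.78 and -1.86. *Tph2* stood at 14.2% with saline (10.9% and 18.5%) and 5.35% with PACAP38 (5.33% and 5.38%), a ratio of 0.378-fold with log2 ratios of -1.05 and -1.76. For both genes the saline channels lay above the PACAP38 channels. By their brightest probes the other 8 members ranged from 0.846-fold (*Gata2*) to 1.02-fold (*Gata3*), so the 2 genes below 0.75-fold were the same 2 as in sham. Of all gene names 7.04% were below 0.75-fold and 4.96% above 1.5-fold in this comparison.

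**Figure D1:**
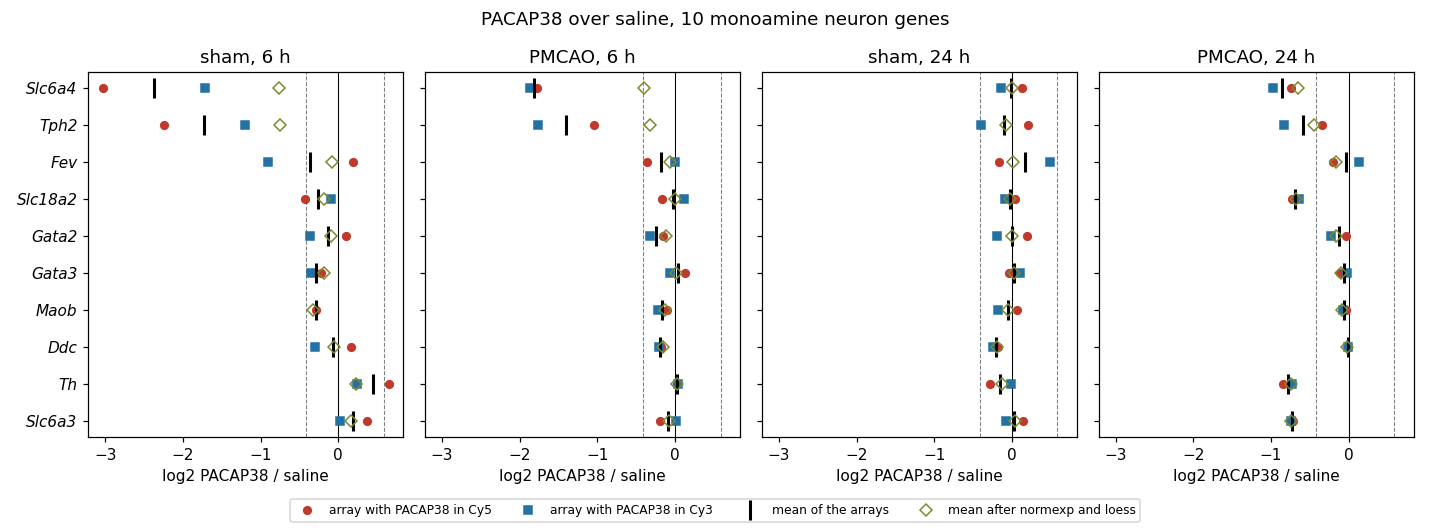
PACAP38 over saline (log2, x axis) of the 10 genes in the 4 comparisons: filled symbols are the 2 arrays of a comparison, black bars their mean, open diamonds the mean after another background correction, and dashed lines the thresholds of 1.5-fold and 0.75-fold. Slc6a4 and Tph2 lie far to the left at 6 h, where the diamonds stand much closer to 0, and Slc6a4, Tph2, Slc18a2, Th and Slc6a3 lie to the left of the lower threshold in PMCAO at 24 h.

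The size of the 6 h differences rested on small signals. In the sham PACAP38 pool the mean *Slc6a4* signal was 69.2 in Cy5 and 60.9 in Cy3, against median channel backgrounds of 48.0 and 45.0, while the saline pool gave 82.2 in Cy3 and 260 in Cy5, against 44.5 and 49.0. In the PMCAO PACAP38 pool it was 79.1 in Cy5 and 55.3 in Cy3, with 64.3 and 167 for saline. All of these spots were marked well above background by the scanner software. With the normexp background correction, which adds an offset of 50 to each channel, the ratio of *Slc6a4* became 0.590-fold in sham and 0.757-fold in PMCAO, and that of *Tph2* 0.593-fold and 0.796-fold. The direction was thus the same on all 4 arrays of 6 h under both corrections, but the PMCAO values no longer passed 0.75-fold.

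In the sham pools of 24 h no member passed either threshold, beside 3.81% of all gene names below 0.75-fold and 1.79% above 1.5-fold. *Slc6a4* stood at 9.58% in both the saline pool (9.14% and 10.0%) and the PACAP38 pool (10.1% and 9.10%). *Tph2* stood at 9.68% with saline (8.74% and 10.7%) and 9.10% with PACAP38 (10.2% and 8.14%). For both genes the channels of the pools overlapped, and the ratios were 0.995-fold and 0.935-fold. The other members ranged from 0.866-fold (*Ddc*) to 1.12-fold (*Fev*). *Fev* was not well above background with PACAP38 on either array at 24 h and was so with saline on only 1 of 2 arrays, so its 24 h ratios rest on background.

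In the PMCAO pools of 24 h 5 members were below 0.75-fold and none above 1.5-fold, beside 8.31% and 3.09% of all gene names. They were both reuptake transporters, the vesicular transporter and both rate-limiting hydroxylases. *Slc6a4* stood at 24.7% with saline (23.3% and 26.3%) and 13.7% with PACAP38 (14.0% and 13.5%), a ratio of 0.550-fold with log2 ratios of -0.75 and -0.98. *Tph2* stood at 19.3% with saline (19.8% and 18.8%) and 12.9% with PACAP38 (15.8% and 10.6%). Its ratio was 0.665-fold, and only the array with PACAP38 in Cy3 was past the threshold by itself (log2 -0.84 against -0.34).

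*Slc18a2* stood at 88.6% with saline (87.5% and 89.6%) and 55.3% with PACAP38 (52.9% and 57.7%), a ratio of 0.620-fold. Its second probe gave 0.633-fold, so both probes were past the threshold. *Th* stood at 65.7% with saline (68.5% and 63.0%) and 38.4% with PACAP38 (38.5% and 38.2%), a ratio of 0.580-fold, and all 9 usable spots on each array were below 0. *Slc6a3* stood at 484% with saline (485% and 484%) and 295% with PACAP38 (298% and 292%), a ratio of 0.605-fold with log2 ratios of -0.71 and -0.74. Its lowest level in any pool, 218%, was above the highest of *Th* (65.7%) and of *Slc18a2* (88.6%). The specificity of its only probe was not tested. In all 5 genes the saline channels lay above the PACAP38 channels.

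The other 5 members stayed closer to 1 in the same pools. *Ddc* stood at 461% in both and gave 0.993-fold by its brighter probe and 1.03-fold by the second. *Gata2* gave 0.914-fold and 0.810-fold by its 2 probes, *Gata3* 0.958-fold, *Maob* 0.964-fold and *Fev* 0.977-fold. Unlike for the dim *Slc6a4* and *Tph2* at 6 h, the other background correction left the values of the brighter genes nearly unchanged. It gave 0.625-fold for *Slc18a2*, 0.596-fold for *Th* and 0.597-fold for *Slc6a3*. It gave 0.637-fold for *Slc6a4* and 0.733-fold for *Tph2*.

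**Figure D2:**
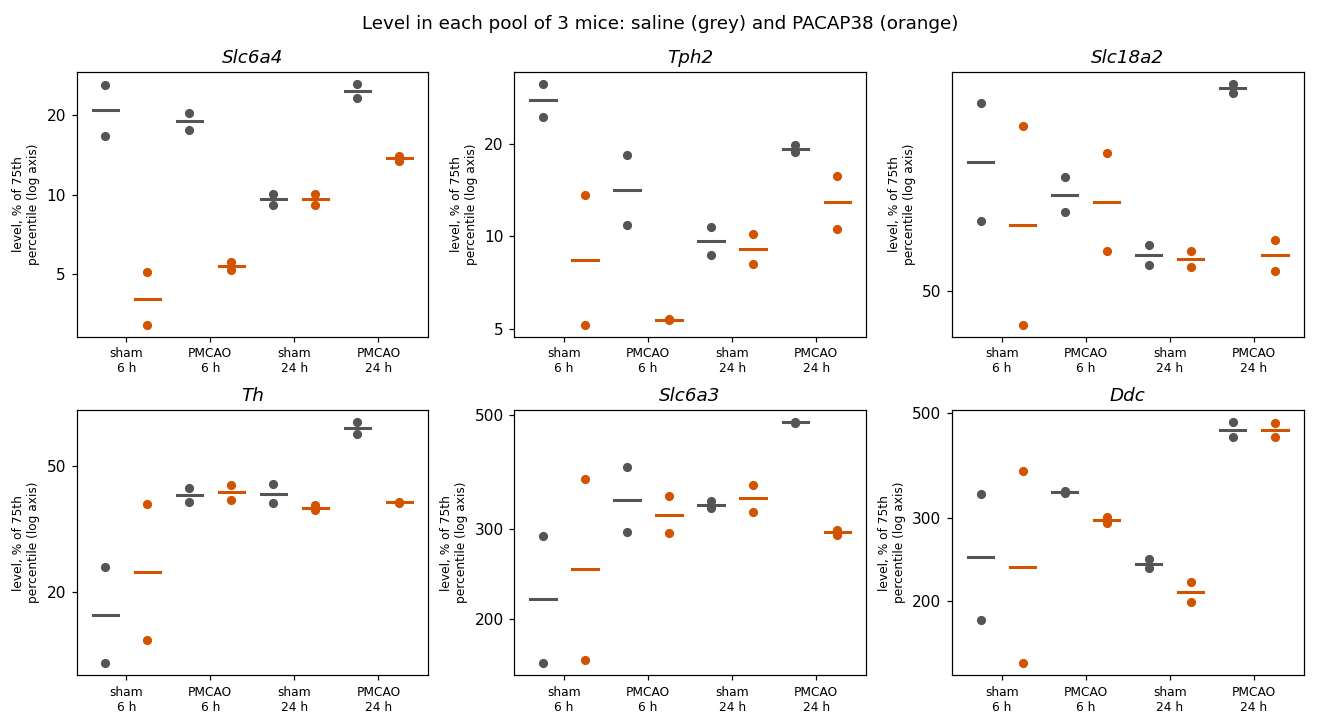
Level of 6 genes in the 8 pools, as percent of the 75th percentile of the channel (logarithmic y axis that does not start at 0), with a point for each array and a bar for the geometric mean: grey is saline, orange PACAP38. In PMCAO at 24 h the saline pool is the highest of the 4 pools of that time for Slc6a4, Tph2, Slc18a2, Th and Slc6a3, while Ddc is high in both PMCAO pools.

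The design also allowed PMCAO to be set against sham, from channels of the same dye and treatment on the 2 arrays of one time. In the saline pools of 24 h 6 members were above 1.5-fold and none below 0.75-fold, beside 9.16% and 14.6% of all gene names. *Slc6a4* was at 2.58-fold, *Tph2* at 1.99-fold, *Ddc* at 1.92-fold, *Th* at 1.61-fold, *Slc18a2* at 1.60-fold and *Gata2* at 1.56-fold, and each was past 1.5-fold with either dye. *Slc6a3* was just short at 1.45-fold, and of the second probes that of *Gata2* gave 1.70-fold and that of *Slc18a2* just under 1.5-fold. *Fev* was at 1.35-fold, *Gata3* at 1.08-fold and *Maob* at 0.792-fold. These pools are the same saline pools as in the PACAP38 ratios above, so the higher PMCAO saline level enters both comparisons.

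In the PACAP38 pools of 24 h only *Ddc* was above 1.5-fold, at 2.21-fold, and none was below 0.75-fold, beside 6.41% and 8.76% of all gene names. *Slc18a2* was at 1.01-fold, *Th* at 1.04-fold and *Slc6a3* at 0.858-fold, so their PACAP38 levels in PMCAO were close to those of the sham pools. *Slc6a4* was at 1.43-fold, *Tph2* at 1.42-fold and *Gata2* at 1.42-fold. The second probe of *Ddc* gave 2.04-fold in the saline pools and 2.32-fold in the PACAP38 pools. With the other background correction and Aquantile normalization, 2 members stayed above 1.5-fold in the saline pools, *Slc6a4* at 1.70-fold and *Ddc* at 1.93-fold, and the other 4 ranged from 1.39-fold to 1.48-fold.

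At 6 h the PMCAO over sham values were less stable. Scaling to the 75th percentile left the median of all genes at a log2 of 0.25 in the saline pools and 0.29 in the PACAP38 pools, against -0.02 and 0.04 when channels were scaled to their medians, so the values below are to be read against that shift. In the saline pools *Th* was at 2.39-fold and *Slc6a3* at 1.57-fold, *Tph2* at 0.513-fold and *Gata3* at 0.604-fold, beside 31.5% of all gene names above 1.5-fold and 20.9% below 0.75-fold. In the PACAP38 pools *Th* was at 1.78-fold and *Tph2* at 0.639-fold, beside 30.5% and 17.1%. The 2 dyes disagreed widely there: *Th* had log2 values of 0.20 and 1.46 and *Tph2* of 0.05 and -1.34. *Slc6a4* was at 0.906-fold in the saline pools and 1.33-fold in the PACAP38 pools, and its saline log2 values of -0.57 and 0.28 had opposite signs. The probes of *Ddc* differed, at 1.37-fold (brighter) and 2.34-fold (second) in the saline pools and 1.26-fold and 1.53-fold in the PACAP38 pools. The sham array with the many outlier spots enters every value of the second dye, and its part in these differences was not tested.

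**Figure D3:**
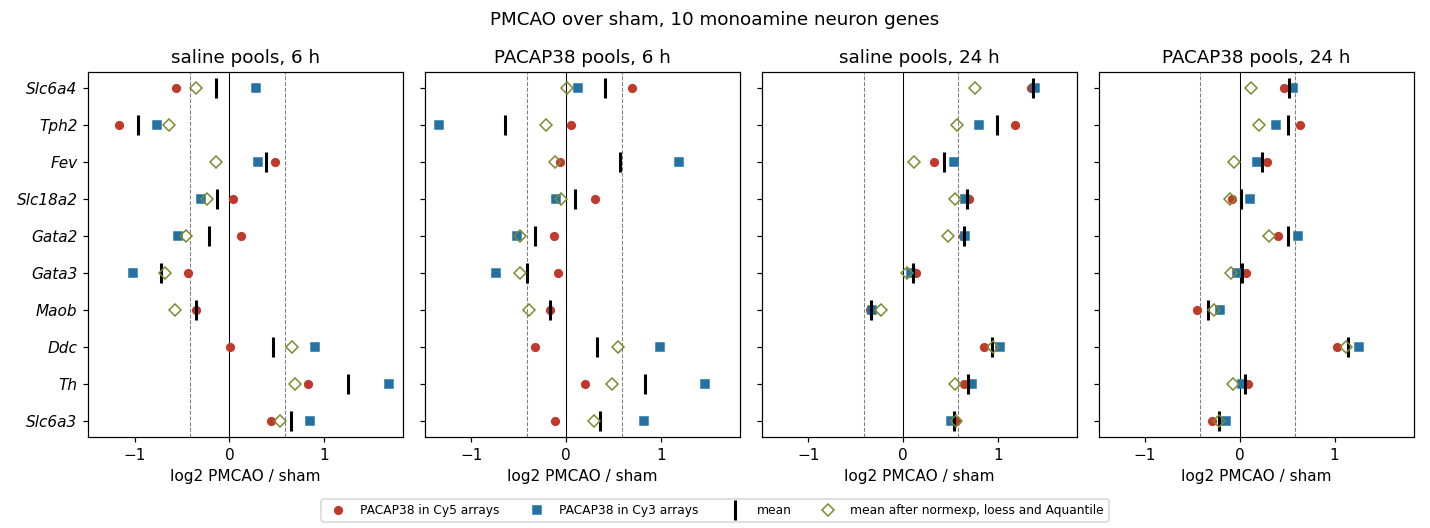
PMCAO over sham (log2, x axis) of the 10 genes for each treatment and time: filled symbols are the 2 dye orientations, black bars their mean, open diamonds the mean after the other background correction and normalization, and dashed lines 1.5-fold and 0.75-fold. The 2 orientations lie close together at 24 h and far apart at 6 h.

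The other genes of monoamine signalling, 53 names in 6 lists, were read beside the members. For the mean PACAP38 over saline ratio across the 4 pairs of pools, 0 of the 48 that could be tested passed limma's test with Benjamini-Hochberg adjustment at 0.05, and 0% of all probes were called in either direction. At an unadjusted p under 0.05 there were 2, both lower, *Chrna6* (an acetylcholine receptor subunit of dopamine neurons, mean log2 -0.18 ± 0.03, SE) and the dopamine receptor gene *Drd4* (-0.93 ± 0.24), among 1782 of 36121 probes. The error of *Chrna6* is between means of 2 arrays, and its dye orientations had opposite signs in 3 of the 4 comparisons (0.51 and -0.77 in PMCAO at 24 h). For the mean PMCAO over sham difference, 0 of 48 passed the adjusted limma test as well, and 0% of all probes in either direction. There 12 were higher and 7 lower at an unadjusted p under 0.05, among 8082 probes. With only probes well above background, 146 probes were called higher and 14 lower in PMCAO, none of them of these lists.

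Further genes of serotonin neuron identity stood closer to 1 at 6 h than *Slc6a4* and *Tph2* did. Of 11 such genes (among them *Lmx1b*, *En1*, *Foxa2* and *Htr5b*) 0 were below 0.75-fold with PACAP38 in sham and 1 in PMCAO, the monoamine transporter gene *Slc29a4* at 0.749-fold, and their median log2 ratios were -0.08 and -0.01 against 0.00 for all genes in both comparisons. *En1* and *Slc22a3* were not well above background in any pool, and *Lmx1b* in no pool of 24 h. In PMCAO at 24 h 2 of 11 were below 0.75-fold (*Foxa2* and *Lmx1b*) and the median was 0.00. Of the 9 further genes of dopamine neuron identity (*Nr4a2*, *Pitx3*, *Aldh1a1* and others) 0 passed a threshold with PACAP38 in PMCAO at 24 h, with a median of 0.00 and a range of -0.18 to 0.55. Of these 9, *Foxa1* and *Lmx1a* were not well above background in any pool. Genes without signal enter the medians of both lists, as *Lmx1a* did with a mean log2 ratio of 0 over the 4 pairs of pools. A median of 0.00 may therefore be the value of an undetected gene. *Nr4a2*, which encodes a transcription factor of dopamine neurons, was lower in PMCAO than in sham at 24 h, at 0.425-fold in the saline pools and 0.569-fold in the PACAP38 pools.

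Receptor genes followed other courses. *Htr5b*, a serotonin receptor gene listed under neuron identity, was lower in PMCAO at both times, at 0.637-fold (saline) and 0.548-fold (PACAP38) at 6 h and at 0.499-fold and 0.670-fold at 24 h. The serotonin receptor gene *Htr1a* was lower in PMCAO at 6 h, at 0.599-fold and 0.472-fold. *Htr2b*, another serotonin receptor gene, was higher there and not well above background in the sham saline pool, which makes the saline difference at least 1.31-fold. It was not well above background in either sham pool of 24 h. *Drd4* was lower with PACAP38 on all arrays, at 0.861-fold (sham) and 0.520-fold (PMCAO) at 6 h and at 0.480-fold and 0.348-fold at 24 h. It was below 0.75-fold on both arrays of each comparison except sham at 6 h. At 24 h it was higher in PMCAO than in sham, at 3.51-fold (saline) and 2.55-fold (PACAP38). At 6 h it was higher in PMCAO too, with log2 values of 2.59 and 5.49 in the saline pools that show how far the 2 dyes were apart. *Gch1*, which encodes the first enzyme of the tetrahydrobiopterin cofactor of Th and Tph2, was at 1.98-fold and 2.08-fold in PMCAO at 6 h, and at 2.93-fold with saline and 1.51-fold with PACAP38 at 24 h. Its PACAP38 over saline ratio in PMCAO at 24 h was 0.579-fold.

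Genes of other monoamine neurons and of neighbouring brain regions moved beside the members in PMCAO at 24 h. Of 7 genes of noradrenaline and histamine neurons 4 were below 0.75-fold with PACAP38, beside 8.31% of all gene names. Only *Hdc*, the histidine decarboxylase, was so on both arrays, at 0.368-fold, and *Slc6a2*, another of the 4, was not well above background in any pool. All 5 olfactory bulb markers were below it, with *Doc2g* at 0.313-fold and *S100a5* at 0.0467-fold and a median log2 ratio of -2.64. The summed level of these 5 was 390% in the PMCAO saline pool, 159.5% in the PMCAO PACAP38 pool, and 167% and 192% in the sham saline and PACAP38 pools, so the saline pool of PMCAO stood apart for them as it did for *Th* and *Slc6a3*. Of 5 hypothalamic peptide genes 4 were below 0.75-fold, and their summed level was 1616% with saline and 1140% with PACAP38, against 1559% and 1510% in sham. Of 3 pituitary hormone genes *Prl* and *Gh* were below, as they were in sham, and were not well above background with PACAP38 on either array, while *Cga* was above 1.5-fold. Of 17 hindbrain *Hox* genes 5 were below 0.75-fold, 1 of them on both arrays, with a median log2 ratio of -0.11. In these pools 11 (saline) and 12 (PACAP38) of the 17 were not well above background. Striatal markers went the other way, with 2 of 4 above 1.5-fold and a summed level of 790% with saline and 1275% with PACAP38, against 1666% and 1648% in sham. The methods state that the olfactory bulb was removed. Whether any of it stayed in a pool, and the part of these regions in the member values, was not tested.

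At 6 h the region lists took other courses. The olfactory bulb markers were higher with PACAP38, 5 of 5 above 1.5-fold in sham and 3 of 5 in PMCAO, and so were 4 of 5 cerebellar markers in PMCAO, although the methods state that bulb and cerebellum were removed. Of all gene names 3.84% (sham) and 4.96% (PMCAO) were above 1.5-fold. Hindbrain *Hox* genes, which do not mark the most rostral hindbrain, were below 0.75-fold for 3 of 16 in sham and 4 of 17 in PMCAO. Of all gene names 7.16% and 7.04% were so. On both arrays it was 0 *Hox* genes in sham and 1 in PMCAO, and 1 (*Hoxc5*) was above 1.5-fold in PMCAO. The medians of the *Hox* genes were -0.04 and 0.00. Their summed level was 60.0% (saline) and 55.8% (PACAP38) in sham and 87.6% and 78.4% in PMCAO, and between 9 and 14 of the 17 were not well above background in a pool. Of 4 genes listed for midbrain GABA neurons 1, *Gad2*, was below 0.75-fold in sham, not on both arrays, and 0 in PMCAO. *Gad1* and *Gad2* of this list also mark GABA neurons of other regions, so it does not read the midbrain alone. How much raphe tissue each pool held was not measured, and its part in the *Slc6a4* and *Tph2* values was not tested.

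**Figure D4:**
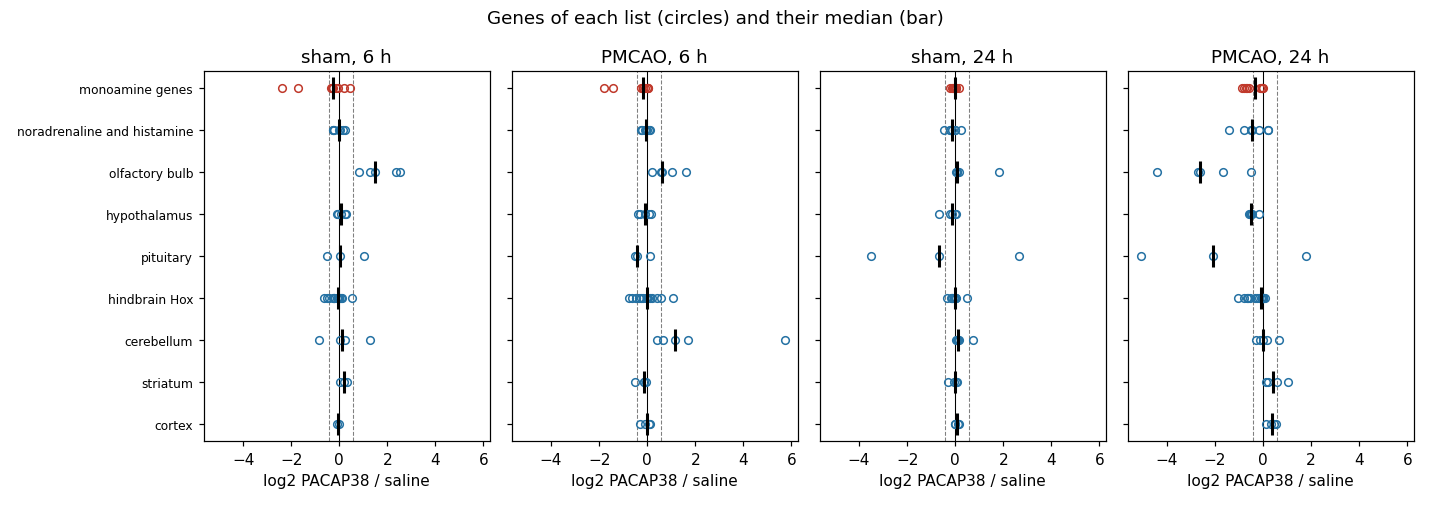
PACAP38 over saline (log2, x axis) in the 4 comparisons for the 10 monoamine genes (red) and for genes of other neurons and regions (blue), with a circle for each gene and a bar for the median of the list. In PMCAO at 24 h all olfactory bulb and hypothalamic genes shown lie to the left of 0, while at 6 h the olfactory bulb genes lie to the right.

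The courses of the genes over the 8 pools were set side by side by their levels, each minus the mean of the 4 pools of its time, over 10699 genes with a known symbol and signal on all arrays. Pools on one array share that array, and 8 points give a correlation little weight, so no p is given. The member most like *Slc6a4* was *Tph2* (Pearson r 0.89, rank 8 among the other genes), followed by *Slc18a2* (0.64) and *Gata2* (0.58). *Th* stood at 0.09. Among the other genes closest to *Slc6a4* were *Rad51c*, *Racgap1*, *Psmd1* and *Slc29a3* (0.89 to 0.93), and their PACAP38 ratios ran from 0.687-fold to 1.06-fold. The member most like *Th* was *Slc6a3* (0.94, rank 128), followed by *Ddc* (0.55) and *Slc18a2* (0.40), while *Gata3* stood at -0.79. The 5 other genes closest to *Th* were *Fdft1*, *Plxnb2*, *Ppm1j*, *Ngfr* and *Trpv4* (0.98 to 0.99). Their PACAP38 ratios in PMCAO at 24 h ran from 0.470-fold (*Ppm1j*) to 0.890-fold (*Plxnb2*). *Fev* and *Maob* were not among the genes compared.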

How the data were processed

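The 10 genes and the gene lists were chosen with earlier results of these data known. Per the file headers the arrays are Agilent 4 × 44K oligo arrays read with Feature Extraction 9.5.1.1 (6 h) and 9.5.3.1 (24 h). In the deposited scanner tables a spot has a log10 ratio (red over green, background-subtracted and dye-normalized by the software), intensity columns with its mean, background and processed signals, and scores of 0 or 1 that flag outliers and signal well above background. A linear ratio per spot was deposited too, as a score that is negative where PACAP38 was in Cy3, and it matched the scanner ratios to 0.005. Each pair of dye-exchanged arrays is numbered as 2 pools in the labels but was made from 1 RNA according to the methods, and counted as 1 replicate.

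Ratios were put on the log2 scale with PACAP38 as numerator, outlier spots were left out, spots of a probe and then the 2 arrays were averaged, and the brightest probe stood for a gene. PMCAO over sham is the difference of log2 processed signals, each scaled to the 75th percentile of its channel, between channels of the same dye, treatment and time. A fold given as "at least" compares the brighter group with the lowest signal well above background, after normexp, loess and Aquantile. Named genes were the members, genes of the pathway lists past the fold on both arrays in 2 paired comparisons of one time with the brighter group above background, and the 5 genes most like *Slc6a4* and *Th* (1 of them is not reported here), while the other pathway and marker genes named were chosen after their values were seen. Means over the 4 pairs of pools were tested with limma 3.58.1 in R 4.3.3 for genes that are not members; the pairs of one time share arrays. The test was checked on simulated data. Alternatives were normexp with an offset of 50 and loess, Aquantile or median scaling, single arrays, the deposited table, filters on dim probes, 1.5-fold either way, outliers kept and the mean of all probes. Tables and plots were made with Python 3.11.15, numpy 2.4.6, pandas 2.3.3 and matplotlib 3.10.9.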

Additional observations from a re-analysis of the deposited data

Results flagged for a closer look

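*Th* had PACAP38 over saline log2 ratios above 0 on the 4 arrays of 6 h (0.02 to 0.65, mean 0.24) and below 0 on the 4 arrays of 24 h (-0.84 to -0.02, mean -0.47), a difference of 0.71 that was not tested. The 4 arrays of a time come from 2 pairs of pools. The opposite signs rest on sham at 6 h and PMCAO at 24 h. In PMCAO at 6 h the ratios were close to 0 (0.02 and 0.04), 3 of 10 and 4 of 10 spots were below 0, and 1 array turned to -0.04 after the normexp correction. In sham at 24 h 1 array stood at -0.02, with 2 of 8 spots above 0. Olfactory bulb markers had median log2 ratios of 1.51 (sham) and 0.60 (PMCAO) at 6 h and of 0.07 and -2.64 at 24 h. The methods state that the bulb was removed, and its part in the *Th* values was not tested. Each comparison has 1 pair of pools, so no group was large enough to look for a single sample far from the others.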

How the results depend on the processing

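Of the 9 member values past a threshold with PACAP38, the deposited table, the dim probe filter, kept outliers and the mean of all probes left 9 past it, and normexp with loess 7. Apart from normexp, these settings could hardly change a call. The deposited table holds the same scanner ratios, and the dim probe filter left every value as it was. The mean of all probes could alter only *Slc18a2*, the called gene with a second probe, and kept outliers altered only *Th*. In PMCAO at 6 h 0 members were lower after normexp with loess, against 2; that correction adds an offset to both channels, which pulls ratios of dim spots to 0. Of 13 values past a threshold for PMCAO over sham, 10 stayed past it with median scaling and 6 after normexp, loess and Aquantile. In the saline pools, members higher came to 1 with median scaling at 6 h (against 2) and to 2 after Aquantile at 24 h (against 6). In the PACAP38 pools of 6 h, members higher came to 0 with median scaling and with Aquantile (against 1), and members lower to 3 with median scaling, 2 with Aquantile and 2 with outliers kept (against 1). The 2 with Aquantile were *Gata2* and *Gata3* (log2 -0.48 and -0.49). *Tph2*, the 1 in the main setting, was no longer past the threshold there (-0.22). The cause of these shifts was not tested. With single arrays, members with PACAP38 higher in sham at 6 h came to 0 to 1 (*Th* on the array with PACAP38 in Cy5). For PMCAO over sham at 6 h, single arrays gave 1 to 3 higher in the saline pools, and 1 to 4 higher and 0 to 3 lower in the PACAP38 pools, where *Tph2* ran from a log2 of -1.34 to 0.046, the latter without the sham array of many outliers and its partner. In the PACAP38 pools of 24 h they gave 2 higher with either dye and 0 to 1 lower. With the slide as a block, limma called 14 pathway genes higher and 11 lower in PMCAO at an adjusted 0.05, against 0, in a fit whose pairs share arrays. No paired analysis was possible because the replicate numbers are the 2 dye orientations of the same RNA and were averaged. Signals near background limit *Slc6a4*, *Tph2* and *Fev*, as does 1 pair of pools per comparison.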

Other observations

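Of 4 astrocyte genes and of 4 erythroid genes, 0 of those with a value on both arrays were past a threshold with PACAP38 in any of the 4 comparisons. Of 4 genes of cholinergic neurons, not particular to one region, *Chat* alone was below 0.75-fold, in PMCAO at 6 h and not on both arrays. *Chat* and *Slc18a3* were not well above background in any pool of 24 h. Of 2 genes of glycine neurons, *Slc6a5*, a glycine transporter gene, was at 1.61-fold in PMCAO at 6 h and 0.676-fold in PMCAO at 24 h. Neither value was past the threshold on both arrays, and neither gene was well above background on both arrays in the PMCAO pools of 6 h. *Glra1*, the other gene, had a log2 ratio of 1.30 in sham at 6 h, where it was not well above background in either pool. The cortical list had no call with PACAP38, and its median log2 ratio was 0.39 in PMCAO at 24 h.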
